A study of Homo sapiens with 26 samples.

Results

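The genes described here are SHISA3 and 9 genes of the Wnt pathway (SHISA2, DKK1, SFRP1, SFRP2, FRZB, AXIN2, NKD1, LEF1 and SP5), 10 of the 18417 genes with a measured level. They were taken by symbol, each at its row of highest mean that carries exactly 1 symbol, and all 10 were found. SHISA3 was chosen by its log2 level, already known from these arrays to be lower after siRNA against DNMT3A, so its values are given as a description, with no test. The question was whether a low SHISA3 level goes with a change in Wnt target genes.

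Expression was measured on 26 Affymetrix Human Gene 1.0 ST arrays of NCCIT, an established human embryonal carcinoma cell line, in 13 groups of 2 arrays. All cells were grown in McCoy's 5A medium with heat-inactivated fetal bovine serum and transfected with siRNA using PepMute, so the controls had been transfected too, and labelling started from 250 ng of Trizol-extracted RNA. The 2 control groups, siNTC-1 and siNTC-2, received control siRNA. The 4 groups with a single target were siDNMT1, siDNMT3A, siDNMT3B and siDNMT3L. The groups with several targets were siD1+3A (DNMT1 and DNMT3A), siD1+3B (DNMT1 and DNMT3B), siD1+3A+3B (all of these), 3A+3B+3L, in which 3L is DNMT3L, and the pairs 3A+3B, 3A+3L and 3B+3L. DNMT1 is the maintenance DNA methyltransferase, DNMT3A and DNMT3B are the de novo enzymes, and DNMT3L is a cofactor of them without catalytic activity. A single line stands behind every value, the sources used here give no siRNA dose and no time after transfection, and the labels do not say that duplicates came from separate cultures. The p-values therefore rest on how far duplicate arrays lie apart, and that spread may be technical.

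Wnt ligands bind Frizzled receptors and LRP co-receptors, which stabilises beta-catenin and lets it switch on genes together with TCF and LEF factors in the nucleus. Several of these targets feed back on the pathway: AXIN2, NKD1 and DKK1 dampen it, and SP5 is a transcription factor that limits the expression of other targets. Secreted SFRP proteins and FRZB bind Wnt ligands outside the cell, DKK1 blocks the LRP co-receptors, and Shisa proteins keep Frizzled and FGF receptors from reaching the cell surface. In pluripotent cells Wnt signalling can drive exit towards mesoderm and endoderm.

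The arrays fell into 2 sets along the axis of largest variance, which held 49.5% of the variance over genes. siNTC-1, siDNMT1, siDNMT3B and siDNMT3L formed a set of 8 arrays, and siNTC-2 formed a set of 18 arrays with the other 8 depletions. No label names a batch. siNTC-2 differed from siNTC-1 in 8234 genes, 44.7% of those tested (limma, Benjamini-Hochberg adjusted p under 0.05), so each depletion was compared with the control of its own set. Duplicates correlated at 0.9973 to 0.9989. The targeted transcript was lower than that control in 4 of 4 groups for DNMT1 (37.4% to 59.5% of control), 6 of 6 for DNMT3A (67.0% to 78.5%), 4 of 4 for DNMT3L (68.3% to 79.7%) and 5 of 6 for DNMT3B. The exception was 3A+3B+3L, where the DNMT3B level was 99.4% of control (adjusted p = 0.951). Some methyltransferase transcripts also passed the test in groups without siRNA against them. DNMT3L was lower in siDNMT1 (75.6% of control, adjusted p = 0.0203). DNMT3B was higher in siD1+3A (115%, adjusted p = 0.0205) and 3A+3L (121%, adjusted p = 0.00285), and DNMT1 in 3A+3B+3L (113%, adjusted p = 0.0218). Of the embryonal carcinoma markers, 14 of 15 measured genes lay above 5.14 on the log2 scale, the 95th percentile of 341 olfactory receptor genes, which served as a guide to a low signal. SOX2 averaged 12.33 and DPPA4 11.62. The DNMT3L transcript lay not far above that guide level, at 5.36 to 6.2 on all arrays. Of the markers of other lineages, 6 of 10 for mesendoderm and endoderm, 3 of 5 for neuroectoderm and 5 of 8 for trophoblast also lay above that level. TFAP2A averaged 11.63, MIXL1 6.12 and CDX2 5.66, and PAX6 (4.2), AFP (4.28), SOX17 (4.79) and GATA3 (4.79) lay below it. Averaged over a list, the arrays read 9.71 to 10.07 for the embryonal carcinoma markers, 5.08 to 5.32 for mesendoderm and endoderm, 5.67 to 6.22 for neuroectoderm and 6.16 to 6.68 for trophoblast. Their part in the results was not tested. POU5F1, NANOG and TDGF1 had no row of their own and were not analysed here.

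The promoters of SHISA3, SFRP2 and FRZB, members whose levels differed most between groups, are shown because CpG sites are the substrate of the enzymes depleted. Each is the 250 bases before the RefSeq start in GRCh38.p14, read along the gene's strand, with CpG dinucleotides in capitals. RefSeq promoters were matched for 7 of the 10 members, and none was matched for AXIN2, NKD1 and SFRP1.
SHISA3 (chr4:42397238-42397487, plus strand): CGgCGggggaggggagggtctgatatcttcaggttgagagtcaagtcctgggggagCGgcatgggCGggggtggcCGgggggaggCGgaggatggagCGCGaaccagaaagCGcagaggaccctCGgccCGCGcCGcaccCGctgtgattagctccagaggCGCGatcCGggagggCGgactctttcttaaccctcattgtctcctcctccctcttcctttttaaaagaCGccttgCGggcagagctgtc
SFRP2 (chr4:153789084-153789333, minus strand): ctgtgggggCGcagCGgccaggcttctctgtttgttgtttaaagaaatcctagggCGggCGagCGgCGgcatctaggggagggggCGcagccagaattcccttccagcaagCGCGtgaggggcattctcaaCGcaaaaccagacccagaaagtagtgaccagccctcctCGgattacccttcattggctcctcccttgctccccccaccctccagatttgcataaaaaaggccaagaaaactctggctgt
FRZB (chr2:182866638-182866887, minus strand): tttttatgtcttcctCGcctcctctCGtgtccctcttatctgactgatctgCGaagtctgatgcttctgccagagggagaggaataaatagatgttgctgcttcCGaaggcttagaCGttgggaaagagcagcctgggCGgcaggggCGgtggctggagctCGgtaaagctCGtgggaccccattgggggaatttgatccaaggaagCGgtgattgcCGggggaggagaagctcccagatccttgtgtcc
The SHISA3 window held 20 CpGs, with an observed to expected ratio of 0.78, against a median of 11 CpGs and a ratio of 0.56 over 35116 promoter windows of that length. SFRP2 and FRZB held 11 each, equal to that median. SHISA2 held the most of the matched members, 26. Methylation itself was not measured on these arrays.

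The windows of DKK1 and SP5 are shown because they carried the letters CTTTGAT or CTTTGAA, the core bound by TCF and LEF factors, which were searched on both strands and are in capitals here.
DKK1 (chr10:52314031-52314280, plus strand): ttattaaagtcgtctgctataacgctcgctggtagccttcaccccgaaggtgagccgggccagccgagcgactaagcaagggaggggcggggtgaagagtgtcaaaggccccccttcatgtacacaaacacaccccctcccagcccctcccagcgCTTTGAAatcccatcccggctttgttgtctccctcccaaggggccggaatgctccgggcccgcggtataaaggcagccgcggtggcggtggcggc
SP5 (chr2:170715087-170715336, plus strand): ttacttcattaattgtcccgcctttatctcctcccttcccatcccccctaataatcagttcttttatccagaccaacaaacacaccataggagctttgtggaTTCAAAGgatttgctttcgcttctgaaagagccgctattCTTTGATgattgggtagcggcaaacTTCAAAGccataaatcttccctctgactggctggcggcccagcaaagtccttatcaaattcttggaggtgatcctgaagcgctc
SP5 had 3 matches, which began 148, 109 and 84 bases before the start, and DKK1 had 1, 95 bases before it. Either motif was present in 5.94% of all windows (CTTTGAT in 2.26% and CTTTGAA in 3.8%). No match was found in these windows of SHISA3, SHISA2, SFRP2, FRZB or LEF1.

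SHISA3, the Shisa family member known as a Wnt and FGF receptor antagonist, was lower on every depletion array than on every control array. Its log2 level was 9.46 and 9.79 on the siNTC-1 arrays and 9.58 and 9.79 on the siNTC-2 arrays. The 22 depletion arrays ranged from 7.57 to 9.32, so the gap between the groups was 0.14. This separation was part of why SHISA3 was chosen. Of all 18417 genes, 69 (0.375%) lay lower on all depletion arrays than on all control arrays and 138 (0.749%) lay higher. In bulk RNA a smaller number of expressing cells and less RNA per cell cannot be told apart.

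In the set of siNTC-1 the decrease was smallest with siDNMT1, whose arrays read 9.20 and 9.32, 0.37 below control on the log2 scale (difference -0.37, SE 0.13). The siDNMT3B arrays read 8.48 and 9.06 (difference -0.86, SE 0.13), the widest spread between duplicates of any group. The siDNMT3L arrays read 8.60 and 8.57 (difference -1.04, SE 0.13). Leaving out any 1 array of the groups compared moved the siDNMT1 difference between -0.53 and -0.20 and the siDNMT3B difference between -1.15 and -0.57.

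In the set of siNTC-2 the 8 depletions lay between 1.10 and 2.04 below control. The groups with siRNA against both DNMT3A and DNMT3L were lowest, at 7.57 and 7.73 in 3A+3L and at 7.64 on both 3A+3B+3L arrays. That is 24.4% and 24.2% of the siNTC-2 level. Next came siD1+3A (7.97 and 7.99), siD1+3A+3B (8.10 and 8.14), siDNMT3A (8.35 and 8.15), siD1+3B (8.25 and 8.30) and 3A+3B (8.32 and 8.34). The 3B+3L arrays were the highest of the depletions in that set, at 8.60 and 8.57, 46.8% of control. Neither siD1+3B nor 3B+3L contained siRNA against DNMT3A, so a low SHISA3 level was not restricted to groups with that siRNA.

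In the order of group means, the controls (9.68 and 9.63) differed by 0.05 and siDNMT1 (9.26) lay 0.37 below them. A further step of 0.49 led to siDNMT3B (8.77), whose duplicates overlapped those of siDNMT3L (8.59) and 3B+3L (8.58). After a step of 0.26 came 3A+3B (8.33), siD1+3B (8.28), siDNMT3A (8.25), siD1+3A+3B (8.12) and siD1+3A (7.98), in steps of at most 0.14. The residual SD of SHISA3 was 0.15. These steps were read off after the means were ranked, and none was tested. A step of 0.33 separated siD1+3A from 3A+3L (7.65) and 3A+3B+3L (7.64). Levels across the 2 sets are not strictly comparable, although SHISA3 itself differed by only 0.05 (SE 0.13) between the 2 control groups.

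**Figure D1:**
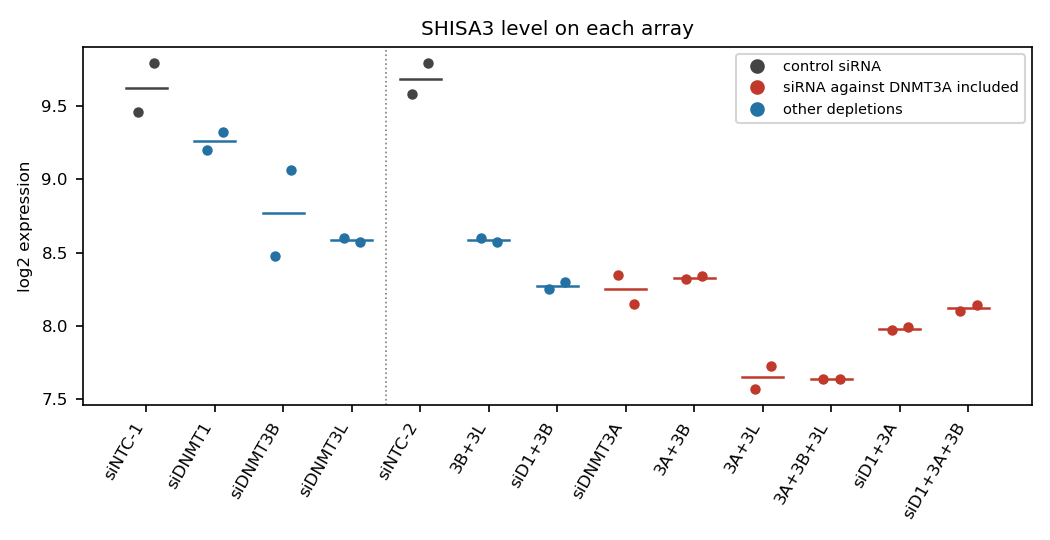
SHISA3 log2 expression on each of the 26 arrays; points are arrays, short lines are group means, and the dotted line parts the set of siNTC-1 (left) from the set of siNTC-2 (right). Every depletion array lies below the lowest control array (9.46), and 3A+3L and 3A+3B+3L lie lowest.

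Pairs of groups in the set of siNTC-2 that differ by a single siRNA give the SHISA3 difference for each addition. Adding siRNA against DNMT3A went with a mean difference of -0.85 (SE 0.08) over 3 pairs, but the pairs were unequal: -1.43 on siNTC-2, -0.95 on 3B+3L and -0.16 on siD1+3B. Adding siRNA against DNMT3L went with -0.65 (SE 0.09), with -0.60 on siDNMT3A and -0.69 on 3A+3B. Adding siRNA against DNMT1 went with -0.24 (SE 0.09) over 2 pairs. For DNMT3B the mean was 0.07 (SE 0.08) over 3 pairs. All of these additions except the first DNMT3A pair were made to cells already depleted of another methyltransferase, and several share arrays.

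SHISA2, the other Shisa member, stayed near the middle of the range of all genes, with arrays between 5.92 and 6.35. It passed the limma test in 0 of 11 depletions, and in 0 at an unadjusted p under 0.05. Its differences from control ran from -0.13 to 0.19. For adding siRNA against DNMT3A, the SHISA2 difference was 0.03, with a 95% interval of -0.10 to 0.15.

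Of the 9 genes that were tested, a call was made in 22 of 99 tests over the 11 depletions, 20 higher and 2 lower, against 19.4% of all tests over all genes (9.37% higher and 10.1% lower). The share of calls was thus near the background, while the split by direction was not even. All but 2 of the higher calls were in SFRP1 and SFRP2, which gave 9 each. By depletion, the 9 genes gave 4 calls in siDNMT1 (19.8% of all genes were called there) and 3 in 3A+3L (22.4%). They gave 2 each in siD1+3A (22.8%), siD1+3B (25.0%), siD1+3A+3B (18.6%), siDNMT3B (24.2%), siDNMT3L (19.2%), 3B+3L (10.1%) and 3A+3B+3L (23.3%). siDNMT3A gave 1 (15.8%) and 3A+3B gave 0 (12.6%), with 1 at an unadjusted p under 0.05.

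SFRP2, a secreted Frizzled-related protein that binds Wnt ligands, was the most strongly expressed member, with a mean of 11.95, above 98.4% of genes. The siNTC-1 arrays read 11.35 and 11.41, and the siDNMT1, siDNMT3B and siDNMT3L arrays all lay between 11.95 and 12.18. SFRP2 rose by 0.75 with siDNMT1 (SE 0.05, limma adjusted p = 5.4e-09), by 0.71 with siDNMT3B and by 0.59 with siDNMT3L. The 3 comparisons share the siNTC-1 arrays.

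In the other set the siNTC-2 arrays read 11.73 and 11.71. SFRP2 was at 11.71 on both siDNMT3A arrays and at 11.71 and 11.72 in 3A+3B, differences of -0.01 in each case that did not pass the test. In the other 6 depletions of the set it rose, by 0.30 in 3B+3L (arrays 12.07 and 11.98) to 0.58 in siD1+3B (12.28 and 12.31). SFRP2 was therefore above the control of its set in 9 of 11 depletions, and the 2 without a call were those with siRNA against DNMT3A alone or with DNMT3B.

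SFRP2 was also higher in siNTC-2 than in siNTC-1, by 0.34 (SE 0.05, adjusted p = 9.7e-06), and 3 of the 9 genes passed the test in that comparison, where 44.7% of all genes did. With the mean of both controls as reference SFRP2 was higher in 11 of 11 depletions, by 0.16 to 0.75, including siDNMT3A and 3A+3B.

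SFRP1, a paralog with the same ligand-binding role, read 7.70 and 7.71 in siNTC-1 and 7.26 and 7.27 in siNTC-2, so it was lower by 0.44 in siNTC-2 (difference -0.44, SE 0.06, adjusted p = 3.2e-06). Against the control of its own set it was higher in 9 of 11 depletions, by 0.20 (siDNMT3L) to 0.42 (siD1+3B). The 2 without a call were again siDNMT3A (0.06) and 3A+3B (0.09). The siDNMT3L call was lost without either siNTC-1 array (adjusted p = 0.0601 and 0.0589) or siDNMT3L replicate 1 (0.137), and the 3A+3B+3L call without its replicate 2 (0.102). The rises in the set of siNTC-2 depend on that control. Against siNTC-1 all 8 depletions of that set lay lower, by -0.03 to -0.38, and 5 of them passed the test in that direction. With both controls as reference 4 of 11 depletions were higher and 2 lower. Whether the control group or the array set carries that offset cannot be told apart.

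In the pairs of groups, adding siRNA against DNMT1 or DNMT3L raised both genes without either control group in the comparison. Adding siRNA against DNMT1 raised SFRP2 by 0.36 (SE 0.03, adjusted p = 1.5e-06) and SFRP1 by 0.23 (SE 0.04, adjusted p = 6.3e-04). That made 2 calls among the 9 genes, where 13.6% of all genes were called. Adding siRNA against DNMT3L raised SFRP2 by 0.37 (SE 0.03, adjusted p = 4.3e-07) and SFRP1 by 0.22 (SE 0.04, adjusted p = 7.1e-04), in a comparison with 3 calls among the 9 genes and 17.7% among all genes. Both additions are measured from the siDNMT3A and 3A+3B arrays, so they are not independent of each other.

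Adding siRNA against DNMT3B gave 0 calls among the 9 genes (limma), with 1 at an unadjusted p under 0.05, FRZB. Of all genes 0.755% were called, and the differences of the 9 genes ran from -0.24 for FRZB to 0.08 for SP5. In that comparison the DNMT3B transcript itself fell by 0.42 (SE 0.04, adjusted p = 8.0e-06). It fell by 0.58 on siDNMT3A and by 0.41 on siD1+3A, and its difference of -0.29 on 3A+3L did not pass (adjusted p = 0.106). Adding siRNA against DNMT3A lowered its own target by a similar amount (difference -0.43, SE 0.04). These averages rest on different pairs of groups, and the part of the target level in the number of calls was not tested.

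FRZB, also called SFRP3, another secreted Wnt-binding protein, behaved differently from SFRP1 and SFRP2. Its control arrays read 6.71 and 7.01 in siNTC-1 and 6.94 and 6.81 in siNTC-2. The siDNMT3A arrays were the highest of all, at 7.68 and 7.65, followed by 3A+3B (7.34 on both), 3A+3L (7.23 and 7.39) and siD1+3A (7.32 and 7.12). The siD1+3A+3B arrays read 7.18 and 7.05, close to the highest control array (7.01). The 3A+3B+3L arrays read 7.12 and 6.93, which overlapped the controls, and the 5 depletions without siRNA against DNMT3A read 6.26 to 6.96.

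Against the control of its own set FRZB rose with siDNMT3A, by 0.79 (SE 0.16, adjusted p = 0.00255), and passed the test in 0 of the other 10 depletions, 3 of which had an unadjusted p under 0.05. The differences were 0.46 in 3A+3B (adjusted p = 0.0734) and 0.43 in 3A+3L (adjusted p = 0.0686). In siDNMT1 the difference of -0.29 (adjusted p = 0.239) became -0.60 without siDNMT1 replicate 2 (adjusted p = 0.0146). With both controls as reference 3A+3B and 3A+3L passed as well (adjusted p = 0.0180 and 0.0267). Adding siRNA against DNMT3A raised FRZB by 0.49 on average (95% interval 0.29 to 0.68, adjusted p = 0.00121), and the 3 pairs were all above 0, at 0.79 on siNTC-2, 0.36 on siD1+3B and 0.31 on 3B+3L. It was the only call among the 9 genes in that comparison, where 18.2% of all genes passed.

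Adding siRNA against DNMT3L to groups with siRNA against DNMT3A lowered FRZB by 0.34 (difference -0.34, SE 0.11, adjusted p = 0.0497). That call was lost on leaving out any of the 8 arrays (adjusted p from 0.0594 to 0.170) and with the replicate number as a block (adjusted p = 0.0565). The difference for DNMT1 was -0.33 (adjusted p = 0.0636).

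**Figure D2:**
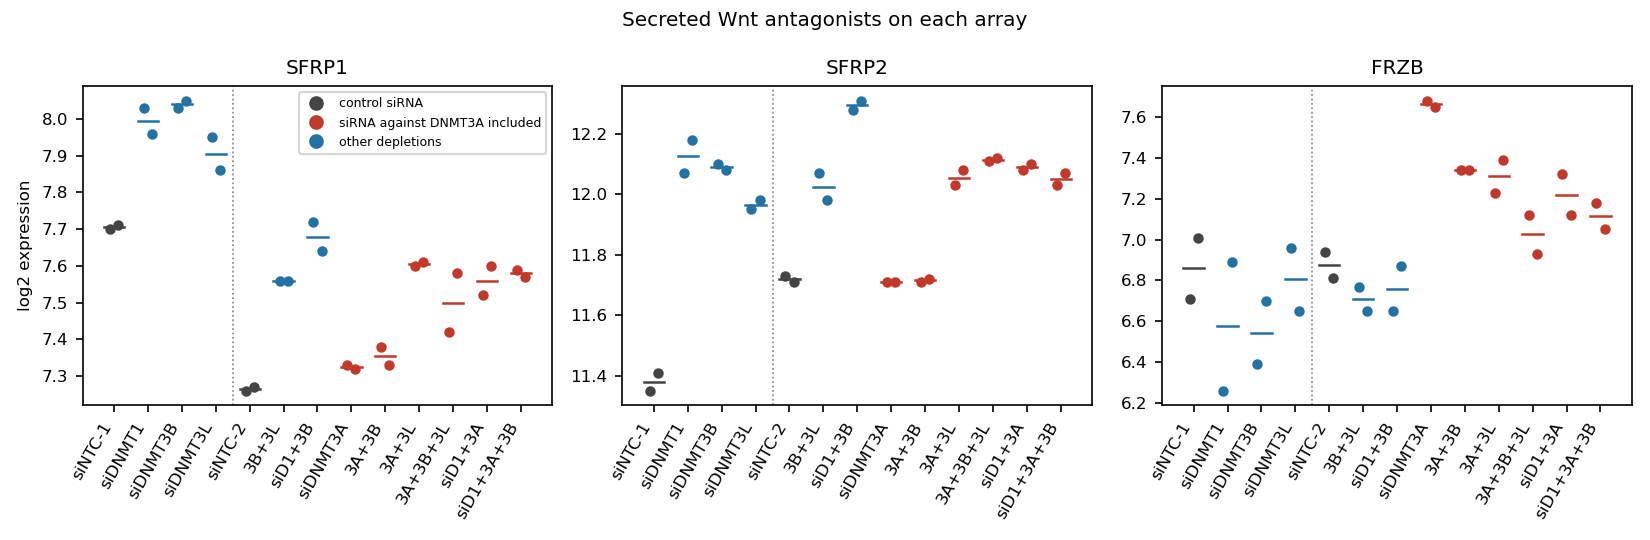
Log2 expression of SFRP1, SFRP2 and FRZB on each array; points are arrays, short lines are group means, and the dotted line parts the set of siNTC-1 (left) from that of siNTC-2 (right). SFRP1 and SFRP2 lie at the siNTC-2 level in siDNMT3A and 3A+3B, whereas FRZB is highest there (7.68 and 7.65 in siDNMT3A).

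DKK1, the secreted blocker of LRP co-receptors and itself a Wnt target, had a mean of 4.80, below the guide level of 5.14. Against the control of its own set it passed the test in 1 of 11 depletions, siDNMT1 (5.18 and 4.84 against 4.59 and 4.74, difference 0.35, SE 0.12, adjusted p = 0.0403), where the duplicates of siDNMT1 were far apart. Leaving out siDNMT1 replicate 1 brought the difference to 0.18 (adjusted p = 0.387), and leaving out either siNTC-1 array also ended the call (adjusted p = 0.218 and 0.0503), as did array weights (0.122) and siNTC-2 as the control (0.138). In siD1+3B the difference of 0.26 did not pass, but it was 0.32 with both controls (adjusted p = 0.0230) and 0.38 against siNTC-1 (adjusted p = 0.0130).

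**Figure D3:**
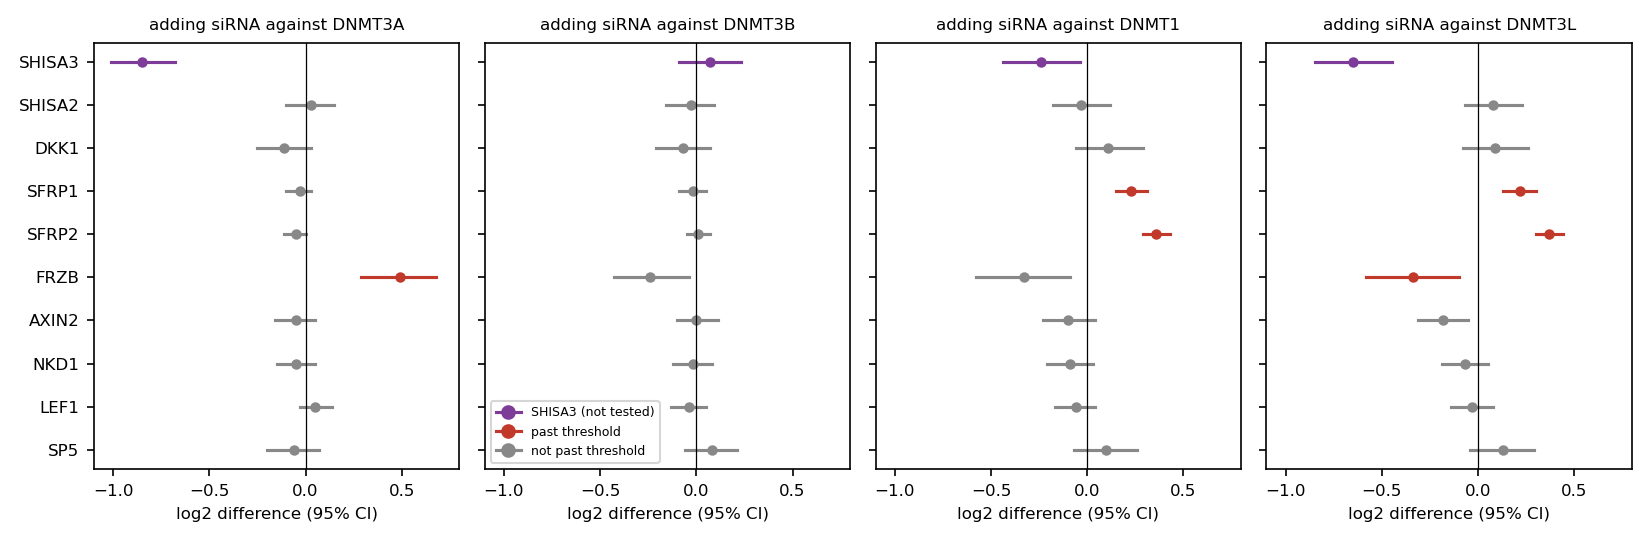
Log2 difference on adding siRNA against DNMT3A, DNMT3B, DNMT1 or DNMT3L for each of the 10 genes, within the set of siNTC-2; points are means over the pairs of groups and bars are 95% confidence intervals. FRZB (0.49) is the only tested gene past the threshold for DNMT3A, and SFRP1 and SFRP2 are past it for DNMT1 and DNMT3L.

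The Wnt target genes among the members showed small differences where any were seen. AXIN2, the feedback inhibitor most widely used as a readout of beta-catenin activity, read 7.55 and 7.60 in siNTC-2 and 7.23 and 7.54 in siNTC-1. In the set of siNTC-2 the group means of the 8 depletions were all below control, by 0.04 to 0.28, and the 3A+3L arrays were the lowest (7.24 and 7.34). AXIN2 fell in 3A+3L by 0.28 (SE 0.09, adjusted p = 0.0251). It also fell with siDNMT1, by 0.30 (7.08 and 7.10, SE 0.09, adjusted p = 0.0236).

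Of the other 9 depletions 0 passed, although 6 of the 11 differences had an unadjusted p under 0.05 and 10 of 11 lay below control. The siDNMT1 call was lost without siNTC-1 replicate 2 (-0.14, adjusted p = 0.300) (7.54, against 7.23 for its duplicate), and without either siDNMT1 array (adjusted p = 0.0984 and 0.0736). The 3A+3L call was lost without either siNTC-2 array (adjusted p = 0.0689 and 0.130), without 3A+3L replicate 1 (0.179), and with both controls as reference (-0.19, adjusted p = 0.0714). Against siNTC-1, the 8 depletions of the set of siNTC-2 differed by -0.10 to 0.14, with 0 calls. That comparison crosses the 2 sets, and AXIN2 was 0.19 higher in siNTC-2 than in siNTC-1 (adjusted p = 0.0954; 0.34 without siNTC-1 replicate 2, adjusted p = 0.00485). In siDNMT3L the AXIN2 difference of -0.24 (adjusted p = 0.0667) passed in several alternatives. It was -0.33 with both controls (adjusted p = 0.00231), -0.42 against siNTC-2 (6.3e-04), -0.25 after quantile normalization (0.0288), -0.24 without the 40% dimmest genes (0.0407) and -0.39 without siNTC-1 replicate 1 (0.00554). It did not pass with array weights (0.167), and without siNTC-1 replicate 2 it was -0.08 and did not pass. With both controls the siDNMT1 difference was -0.39 (adjusted p = 6.4e-04). Array weights ended the siDNMT1 call (adjusted p = 0.0841).

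NKD1, which binds Dishevelled and dampens the pathway, was between 5.97 and 6.44 on all arrays. It lay below the control of its own set in 11 of 11 depletions, but by only 0.05 to 0.20, and passed the test in 0 of them, with 4 at an unadjusted p under 0.05. The 3A+3L difference of -0.20 passed without 3A+3L replicate 1 (-0.29, adjusted p = 0.0497). NKD1 was 0.18 higher in siNTC-2 than in siNTC-1 (adjusted p = 0.0844), so its calls depend on the control. Against siNTC-1, 3 of the 8 depletions of the set of siNTC-2 lay below control. Against siNTC-2, NKD1 passed as lower in siDNMT1 (-0.38, adjusted p = 9.5e-04), siDNMT3B (-0.27, adjusted p = 0.0122) and siDNMT3L (-0.23, adjusted p = 0.0280), comparisons that cross the sets. With both controls it passed in siDNMT1 (-0.29, adjusted p = 0.00414).

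LEF1, the TCF family factor induced by Wnt signalling, was close to the signal of olfactory receptor genes on every array (4.22 to 4.51, against a median of 4.32 for those genes). It passed the test in 0 of 11 depletions (1 at an unadjusted p under 0.05), and a change would be hard to see at that level. LEF1 was lower in siNTC-2 than in siNTC-1 by 0.20 (difference -0.20, SE 0.07, adjusted p = 0.0317), a call that was lost with quantile normalization (adjusted p = 0.205) and on leaving out replicate 2 of siNTC-1 (0.254) or either siNTC-2 array (0.0674 and 0.137).

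SP5, whose promoter carries the 3 TCF motif matches shown above, read 5.56 to 6.27. It passed in 0 of 11 depletions, with 1 at an unadjusted p under 0.05, and its differences ran from -0.14 to 0.25, 10 of them above control. In siDNMT3L, whose arrays read 5.81 and 6.27, the difference became 0.48 without replicate 1 (adjusted p = 0.00396). Against the control of its own set SP5 thus mostly lay on the other side from AXIN2 and NKD1, targets of the same pathway. In the set of siNTC-2, however, SP5 ran only from -0.14 to 0.14. Against siNTC-1 the medians of AXIN2 and NKD1 in that set were 0.01 and 0.03, so the contrast there depends on the control.

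Adding siRNA against DNMT3A went with the largest mean difference in SHISA3 among the 4 additions (-0.85, against -0.65 for DNMT3L), given as a description. Only the DNMT3A mean includes a pair on a control group, which was its largest, so that ranking compares unlike backgrounds. On adding siRNA against DNMT3A the difference was -0.05 for AXIN2 (95% interval -0.16 to 0.05), -0.05 for NKD1 (-0.15 to 0.05) and -0.06 for SP5 (-0.20 to 0.07). None of the 3 passed the test (adjusted p from 0.513 to 0.588). LEF1 differed by 0.05 (adjusted p = 0.450), which says little at its signal. For adding siRNA against DNMT3L, AXIN2 differed by -0.18 (-0.31 to -0.05, adjusted p = 0.0575), just short of the threshold. The same difference passed without the 40% dimmest genes (adjusted p = 0.0317), with a trended and robust prior (0.0474), with array weights (0.0245) and with only the 18 arrays of the set (0.0346), but after quantile normalization it was -0.13 (0.114). Without siDNMT3A replicate 2 it was -0.24 (adjusted p = 0.0143), and without siDNMT3A replicate 1 it was -0.11 and did not pass.

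Over the 9 group means of the set of siNTC-2, AXIN2 and NKD1 followed the order of SHISA3 (Pearson r = 0.83 and 0.81, Spearman rho = 0.8 and 0.67). Without siNTC-2 and 3A+3B+3L, the groups farthest from the middle of the SHISA3 range, r was 0.81 and 0.64 over 7 groups. In the set of siNTC-1 neither gene followed the order of SHISA3. There the SHISA3 means were 9.63 (siNTC-1), 9.26 (siDNMT1), 8.77 (siDNMT3B) and 8.59 (siDNMT3L). In the same order AXIN2 read 7.39, 7.09, 7.46 and 7.15, and NKD1 read 6.21, 6.01, 6.12 and 6.16. Both were lowest in siDNMT1, where SHISA3 was least reduced. The means of AXIN2 spanned 0.48 over all 13 groups and those of NKD1 0.38, against 2.04 for SHISA3. For SP5 r was -0.19, for LEF1 -0.45 and for DKK1 -0.06. CTNNB1 had the coefficient farthest from 0 among the genes compared, -0.85, which was -0.47 over the 7 groups without siNTC-2 and 3A+3B+3L, and CCND1 had -0.59, which was -0.1 over the 7. The points share their arrays, the control group and several siRNAs, so these coefficients only describe the 9 groups. How many of all genes reach coefficients this large was not counted. The coefficients of SFRP1 (-0.59), SFRP2 (-0.52) and FRZB (-0.37) were below 0, and over the 7 groups they were -0.27, -0.19 and -0.41.

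**Figure D4:**
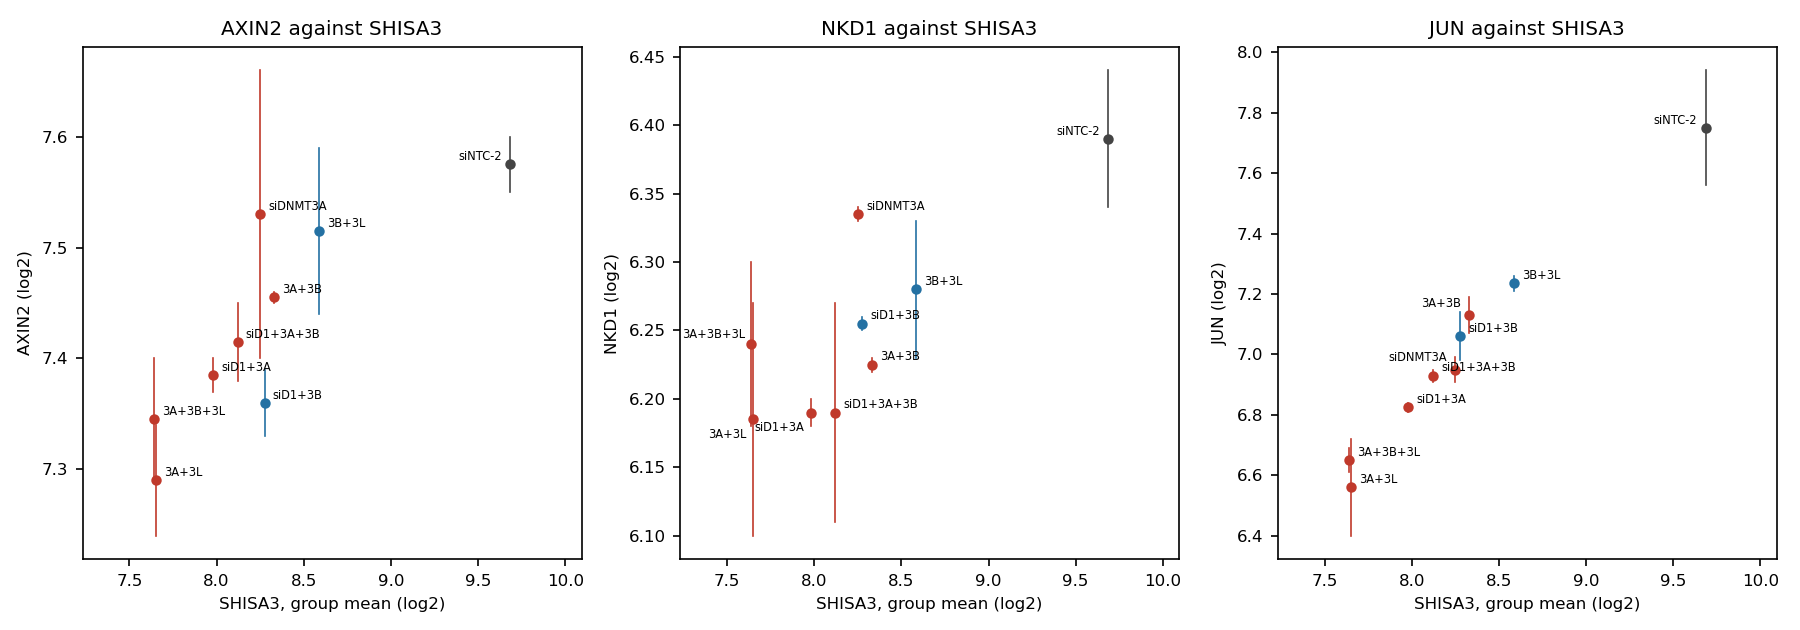
Group means of AXIN2, NKD1 and JUN (vertical, log2) against the SHISA3 group mean (horizontal, log2) in the 9 groups of the set of siNTC-2; vertical lines join the duplicate arrays. AXIN2 and NKD1 rise with SHISA3 over a much narrower range than SHISA3 itself, and their duplicates often span much of it, while JUN follows it closely (r = 0.986).

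The other genes of the pathway were taken from 8 lists, with the members left out, of which 113 of 118 genes were measured. For adding siRNA against DNMT3A, 8 rose and 5 fell, 11.5% of those measured against 18.2% of all genes, and the median difference was 0.01 against 0.00. Among 22 measured target genes, 1 rose and 1 fell, and the median was 0.00. MSX2, a homeobox target, rose by 0.24 (adjusted p = 0.00367).

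By role, 1 of 19 ligand genes fell (WNT4, -0.20, adjusted p = 0.00525). Of 16 receptor genes 2 rose, among them the Wnt receptor tyrosine kinase ROR1 (0.12, adjusted p = 0.0122). In the R-spondin module LGR4, an R-spondin receptor, rose by 0.09 (adjusted p = 0.0106). Of 19 further antagonists 0 passed the limma test, with 2 at an unadjusted p under 0.05. Of 20 cytoplasmic components 2 rose and 2 fell, the latter being DACT1, a Dishevelled-binding protein (-0.18, adjusted p = 0.0218), and APC2, a destruction-complex protein (-0.12, adjusted p = 0.0309). Of 12 nuclear components 2 rose and 1 fell, CTNNBIP1, which keeps beta-catenin from TCF factors (-0.14, adjusted p = 0.0467). Without siNTC-2 replicate 1 the 13 calls became 7, and without siD1+3B replicate 2 or siD1+3A+3B replicate 1 they became 8.

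CTNNB1, which encodes beta-catenin, rose by 0.18 on adding siRNA against DNMT3A (SE 0.03, adjusted p = 1.8e-04), but not evenly over the pairs. The rise was 0.41 on siNTC-2. The value on siD1+3B was lower than that (difference -0.45, limma adjusted p = 4.3e-04), as was the value on 3B+3L (-0.23, adjusted p = 0.0487). Averaged over 6 pairs, 3 of them across the sets, CTNNB1 was lower instead (-0.06, adjusted p = 0.0315). Against the control of its own set CTNNB1 was higher in 11 of 11 depletions, by 0.17 to 0.55. The siNTC-2 arrays were the lowest of all at 12.08 and 12.14, against 12.65 and 12.57 in siNTC-1, a difference of -0.50 (SE 0.05, adjusted p = 1.5e-07). Against siNTC-1 the 8 depletions of the set of siNTC-2 ranged from -0.23 to 0.04, with 0 higher and 1 lower by the test (0 higher and 2 lower at an unadjusted p under 0.05). The direction for CTNNB1 in that set thus depends on the control.

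CCND1, the cyclin D1 gene and a listed Wnt target that also answers to many other signals, was higher in 11 of 11 depletions against the control of its own set. It rose by 1.16 with siDNMT1 (arrays 8.87 and 8.86 against 7.63 and 7.78, adjusted p = 8.0e-10) and by 0.23 to 0.98 in the other depletions. With both controls as reference it was also higher in 11 of 11 (0.34 to 1.05). All 22 depletion arrays lay above all 4 control arrays, with a gap of 0.13, which is the opposite of SHISA3. Of all 18417 genes, 138 (0.749%) lay above the controls in this way. CCND1 did not follow SHISA3 among the depletions, since its largest rise was with siDNMT1, where SHISA3 was least reduced. The largest fall of AXIN2 from the control of its own set (-0.30) was also with siDNMT1.

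CD44, a surface glycoprotein gene on the same list, rose in 5 of 11 depletions, most with siDNMT3B (1.36), siDNMT1 (0.92) and siDNMT3L (0.59). It also rose in siD1+3B (0.33) and 3B+3L (0.24), so all 5 were depletions without siRNA against DNMT3A. In the 6 depletions with that siRNA its differences were between -0.02 and 0.11 and did not pass the test. With both controls as reference 7 of 11 depletions passed, all higher. The 2 added were siD1+3A+3B (0.20, adjusted p = 0.0263) and 3A+3B+3L (0.18, adjusted p = 0.0441). Both contain that siRNA, so which depletions pass depends on the control. Adding siRNA against DNMT3A went with a mean CD44 difference of -0.13 (SE 0.04, limma adjusted p = 0.0472), just past the threshold, with 0.01 on siNTC-2. Over 6 pairs, 3 of them across the sets, the difference was -0.43 (adjusted p = 2.7e-09).

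**Figure D5:**
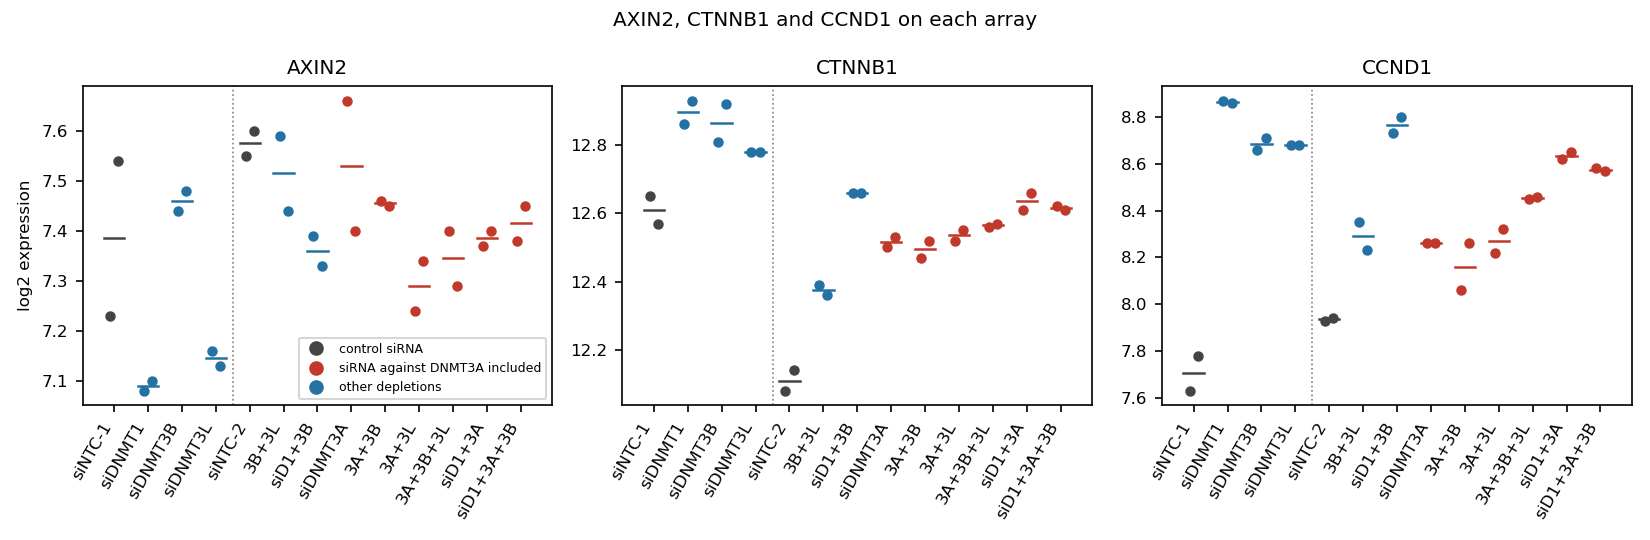
Log2 expression of AXIN2, CTNNB1 and CCND1 on each array; points are arrays, short lines are group means, and the dotted line parts the set of siNTC-1 (left) from that of siNTC-2 (right). CCND1 lies above all 4 control arrays in every depletion, whereas the level of CTNNB1 relative to control depends on which control group is used (12.08 and 12.14 in siNTC-2, 12.65 and 12.57 in siNTC-1).

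FGF receptors are the other known targets of Shisa proteins, so receptor and response genes of that pathway were counted too. For adding siRNA against DNMT3A, 3 of 23 rose and 6 fell, 39.1% of the list against 18.2% of all genes, with a median of -0.02. The share was also above that of all genes in other comparisons: 39.1% against 13.6% for adding siRNA against DNMT1, 56.5% against 17.7% for DNMT3L, and 60.9% against 19.8% in siDNMT1, so it was not particular to siRNA against DNMT3A. For DNMT3A, ETV4, an ETS factor induced by FGF signalling, fell by 0.26 (adjusted p = 3.6e-05), PHLDA1 fell by 0.22 (2.9e-04) and IL17RD, a feedback inhibitor, fell by 0.19 (5.3e-05). The receptor gene FGFR3 rose by 0.21 (2.9e-04), ETV5, another ETS factor, by 0.19 (6.9e-05) and the feedback inhibitor SPRED1 by 0.14 (0.00866). The same list also differed between the control groups, where 16 of 23 passed (12 higher and 4 lower in siNTC-2, 69.6% against 44.7% of all genes), and the part of that difference in the counts above was not tested.

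Among 156 genes whose 9 group means spanned at least 1 on the log2 scale, SHISA3 included, the group means most like those of SHISA3 were JUN (r = 0.986), ADM (0.982), OLIG3 (0.954), TENM2 (0.928) and RGS16 (0.928). Over the 8 depletions alone r was 0.98 for JUN, 0.97 for ADM, 0.95 for OLIG3, 0.69 for TENM2 and 0.91 for RGS16. Over all 13 group means, with each set centred, r was 0.89, 0.95, 0.91, 0.89 and 0.75 in the same order. JUN, an immediate-early transcription factor gene, averaged 7.75 in siNTC-2 and 6.56 in its lowest depletion. Its siNTC-1 arrays were already low at 6.74 and 6.53, unlike those of SHISA3. In that set JUN read 6.66 and 6.93 in siDNMT1, 6.57 and 6.76 in siDNMT3B, and 6.66 and 6.70 in siDNMT3L. JUN thus showed no fall there, whereas the SHISA3 differences ran from -1.04 to -0.37. The most opposite were SNORD50A (-0.924), MTND2P28 (-0.9) and ATP5MK (-0.878). For these r over the 8 depletions alone was -0.71, -0.82 and -0.48.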

How the data were processed

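The deposited values are log2 expression per transcript cluster, 1 column per array, with a range of 3.04 to 14.87 and array medians of 6.28 to 6.33. The log base was inferred from that range. The submitters' processing notes name Partek and give it no role. How background was corrected and arrays were normalized is not given in the sources used here. Of 33297 rows, 19460 had 1 gene symbol, 1754 several and 12083 none. Only rows with 1 symbol were used for genes, 19429 of them matched RefSeq and 0 were renamed, and the row of highest mean per symbol left 18417 genes. Background signal on such arrays compresses differences of weakly expressed genes, and 2 arrays per group limit the precision.

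The 10 genes, the lists, the 2 sets of arrays and the choice of control were chosen with earlier results of these data known. Groups came from the sample titles. limma 3.58.1 (R 4.3.3) was fitted with 13 group means to all 26 arrays (13 residual degrees of freedom), two-sided, with Benjamini-Hochberg adjustment over all genes of a comparison and a threshold of 0.05. A difference for adding an siRNA is the mean over pairs of groups in the set of siNTC-2 that differ by that siRNA alone. The fit was tested on simulated data. Named list genes were those with the smallest adjusted p. For adding siRNA against DNMT3A, up to 4 each way came from the Wnt lists and up to 3 from the FGF lists. Elsewhere up to 2 each way were named. CTNNB1, CCND1, CD44 and TLE4 are described over every depletion, also where that rule did not pick them. For CD44 that choice was made after its values were seen. Genes like SHISA3 were the 5 highest and 3 lowest in Pearson r over 9 group means. Alternatives were another control, quantile normalization, a filter on dim genes, a trended and robust prior, array weights, all rows, a replicate block, fewer arrays and leaving out each array. The replicate numbers do not pair the arrays: deviations of same-numbered arrays correlated over 0.1 in 1 of 21 pairs of groups compared.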

Additional observations from a re-analysis of the deposited data

Results flagged for a closer look

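The difference in SFRP2 on adding siRNA against DNMT3A was not the same in each background of other siRNAs. It was -0.01 on siNTC-2 (adjusted p = 0.950), -0.25 on siD1+3B (adjusted p = 0.00808) and 0.09 on 3B+3L (adjusted p = 0.209). By the test of the difference itself, siD1+3B gave a value 0.24 lower than siNTC-2 (difference -0.24, SE 0.07, limma adjusted p = 0.0322), and 3B+3L gave a value 0.34 higher than siD1+3B (difference 0.34, SE 0.07, adjusted p = 0.00182). Over all genes, 8.07% and 14.8% passed in these comparisons. Both rest on the siD1+3B arrays (12.28 and 12.31), which held the highest SFRP2 levels of all groups. Groups of 2 arrays are too small for a search for outlying samples, which needs at least 4.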

How the results depend on the processing

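The control group mattered most. With siNTC-1 as the control for every depletion, the SFRP1 difference turned to -0.15 in siD1+3A, -0.03 in siD1+3B, -0.13 in siD1+3A+3B, -0.38 in siDNMT3A, -0.35 in 3A+3B, -0.10 in 3A+3L, -0.14 in 3B+3L and -0.20 in 3A+3B+3L, and the SFRP2 difference to 0.34 in siDNMT3A and 0.33 in 3A+3B. With both controls, SFRP1 turned to -0.16 in siDNMT3A and -0.13 in 3A+3B, and SFRP2 to 0.16 in each of them. Averaging all 6 pairs for DNMT3A, 3 of them across the sets, gave 3 calls among the 9 genes in place of 1 (SFRP1 -0.25 and SFRP2 -0.08 in addition) and 52 on the Wnt lists in place of 13, 37 higher and 15 lower; the second count was added after seeing the data. Wnt list calls became 7 without siNTC-2 replicate 1, 8 without siD1+3B replicate 2 and 8 without siD1+3A+3B replicate 1. Leaving out each array in turn gave 7 to 12 of these calls, 21 to 26 member calls over the depletions, 2 to 3 between the controls, 1 to 1 for adding siRNA against DNMT3A, 0 to 0 for DNMT3B, 2 to 2 for DNMT1, 2 to 3 for DNMT3L, and a mean SHISA3 difference of -1.43 to -1.28 around -1.35. The replicate block changed 1 call, FRZB on adding siRNA against DNMT3L (-0.34, adjusted p = 0.0565). Of single-gene results, quantile normalization kept 140 of 144 on their side of the threshold and array weights 136. Leaving out the 40% dimmest genes removed DKK1, LEF1 and SP5, so it gave no value for them. No other row carried SHISA3 as its only symbol, so that alternative was not run. Low signal limits DKK1 and LEF1.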

Other observations

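Components of the pathway outside the 10 genes changed with siRNA against DNMT1 and DNMT3L, and all changes named here passed the limma test. DACT2, a Dishevelled-binding protein gene, fell by 0.63 on adding siRNA against DNMT1 and by 0.72 on adding siRNA against DNMT3L. FZD2, a Frizzled receptor gene, rose by 0.37 and 0.44 in the same comparisons, which share the siDNMT3A and 3A+3B arrays. Of all 113 measured list genes, 7 rose and 10 fell on adding siRNA against DNMT1 (17 calls, where 13.6% of all genes passed), and 5 rose and 14 fell for DNMT3L (19 calls, where 17.7% passed).

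TLE4, a co-repressor of TCF factors, was lower in 10 of 11 depletions against the control of its own set, by -0.18 (3A+3B) to -0.51 (siD1+3B). The exception was siDNMT3A (-0.07, limma adjusted p = 0.454). TLE4 was 0.41 higher in siNTC-2 than in siNTC-1 (adjusted p = 1.1e-05), and with both controls as reference 6 of 11 depletions passed as lower. Against siNTC-1, 3 of the 8 depletions of the set of siNTC-2 passed as higher, so its direction in that set depends on the control.

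ADM, an adrenomedullin gene, and OLIG3, a transcription factor gene, had group means close to those of SHISA3 within the set of siNTC-2. ADM read 10.70 and 10.77 in siNTC-2 and 9.36 and 9.63 in 3A+3L, and OLIG3 read 9.04 and 9.22 against 7.78 and 7.99. In siNTC-1 they were already lower, at 9.70 and 9.91 for ADM and 7.31 and 7.47 for OLIG3, whereas the SHISA3 means of the control groups lay 0.05 apart. These values are a description, with no test.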
